A study of Mus musculus with 10 samples.

Results

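The nuclear genome encodes most subunits of the 5 complexes of the mitochondrial respiratory chain, and their mRNA levels were followed here in 2 mouse breast cancer cell lines driven toward an adipocyte-like state. Members were the rows of the count table whose gene ID maps to a mouse symbol beginning with Nduf and a subunit letter and number, Sdha to Sdhd, Uqcr, Cox4 to Cox8 or Atp5, without assembly factors (symbols beginning with Ndufaf) and pseudogenes. This rule, which uses names and no measured value, found 82 of the 18103 rows. By symbol, 37 belong to complex I, 4 to complex II, 8 to complex III, 16 to complex IV and 17 to complex V. Among protein-coding genes of the RefSeq annotation, 87 have a fitting symbol, and Cox6b2, Cox8c, Ndufb1, Ndufb4b and Ndufb4c were not analysed here. Cyc1 of complex III and Ndufab1 of complex I do not have fitting symbols, and Ndufa4, counted with complex I by its name, is now known as a subunit of complex IV.

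Complex I (NADH dehydrogenase) and complex II (succinate dehydrogenase) pass electrons to ubiquinone, complex III passes them to cytochrome c, and complex IV (cytochrome c oxidase) passes them to oxygen. Complexes I, III and IV pump protons across the inner mitochondrial membrane, and complex V (ATP synthase) uses the gradient to make ATP. Adipogenesis, the formation of fat cells, is known to bring a growth of the mitochondrial compartment, and brown and striated muscle cells use their own isoforms of several complex IV subunits.

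The 10 RNA libraries formed 5 groups of 2, all collected at day 7. Py2T-LT cells, long-term mesenchymal cells of the mouse breast tumour line Py2T, were a control, treated with a MEK inhibitor, or treated with BMP2, a bone morphogenetic protein, plus the MEK inhibitor. MTΔECad cells, a mesenchymal breast cancer line whose name refers to the loss of E-cadherin, were a control or treated with rosiglitazone, an agonist of the adipogenic receptor PPARγ. Per the labels' protocols, control medium held DMSO, and the usual additions were BMP2 at 200 ng/ml, PD98059 (the MEK inhibitor) at 40 µM and rosiglitazone at 2 µM; whether the Py2T-LT groups also received rosiglitazone is not given in the labels, so the 2 lines are compared as labelled. The cells were grown in culture, whether a line is 1 clone is not given in the labels, and the replicates came from 2 independent experiments per the labels.

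Library totals ranged from 14659987 to 17249199 counts. Cdh1, which encodes E-cadherin, was at 2.58 and 2.25 CPM (counts scaled to a common library size) in MTΔECad control libraries and at 36.0 and 31.7 CPM in Py2T-LT control libraries, a gene-level value that cannot be assigned to particular exons. Summed over 7 adipocyte marker genes, the level was 577 and 564 CPM in Py2T-LT control, 924 and 906 with the MEK inhibitor, 1310 and 1130 with BMP2 plus the inhibitor, 1790 and 1660 in MTΔECad control and 3970 and 3660 with rosiglitazone. Such sums follow the most abundant genes. By the edgeR test used below, 7 markers rose with the MEK inhibitor, with a median log2 change of 5.71. With BMP2 plus the inhibitor 7 rose (median 6.21, from 0.46 to 6.84), and with rosiglitazone 5 rose (median 8.56). Between the controls 3 were higher and 1 lower in MTΔECad (median 0.37). In bulk RNA of this kind, a change in the number of cells of a type and a change in RNA per cell cannot be told apart.

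Of the 82 members, 77 passed the filter on low counts. Cox4i2, Cox6a2, Cox7b2, Ndufa4l2 and Ndufs5 did not, and none of these 5 exceeded 0.481 CPM in any library. Cox4i2 and Ndufa4l2 are isoforms known from lung and hypoxic cells, Cox6a2 from striated muscle and Cox7b2 from testis. Ndufs5, a small accessory subunit of complex I, held 0 to 4 counts per library, while its processed pseudogene Ndufs5-ps, the 1 pseudogene row with a fitting symbol, held 276 to 582. Reads of such near-identical copies could have been assigned to either, so Ndufs5 is reported as uncertain, and so are Cox7c with 7 to 17 counts, Atp5l with 6 to 14, Atp5g2 with 14 to 35, Atp5md with 23 to 49 and Atp5g1 with 59 to 112. Cox8b passed the filter only through the rosiglitazone libraries, and Cox7a1 only through the Py2T-LT libraries.

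Promoter sequences (250 bases before to 50 after the annotated start, from RefSeq, GRCm38.p6) were matched to 67 of the 82 members and to 13608 genes of the table. Motifs of factors known to act on respiratory genes were searched on both strands: the NRF1 motif, a palindrome of GCGC, AT and GCGC that reads the same on both strands, CCGGAAG, bound by ETS factors such as GABP, AAGATGGC, bound by YY1, and TCAAGGTCA, bound by oestrogen-related receptors. The NRF1 motif was present in 5 members (7.46%, against 1.89% of the table's genes), the ETS motif in 17 (25.4% against 16.3%), the YY1 motif in 10 (14.9% against 4.33%) and the oestrogen-related receptor motif in 2, Atp5g3 and Sdhd (2.99% against 0.316%). Over all 27025 genes with a promoter entry the shares were 1.07%, 9.93%, 3.19% and 0.466%. No 2 motifs overlapped in a member's promoter. A direct repeat for PPARγ (DR1: AGGTCA, any 1 base, AGGTCA) was in none of the 67 windows and in 0.0588% of the table's genes. A match describes letters and is neither a site nor a cause.

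Below are exon-free upstream stretches of the member with the largest rise under rosiglitazone (Cox8b, which holds none of these motifs) and of 3 members that rose under it and hold a motif, shown in capitals. All are on the minus strand, written 5′ to 3′. Cox8b is chr7:140900447-140900696, Atp5g3 is chr2:73911327-73911576 (inside the annotated gene, before the start of a shorter transcript), Cox6a1 is chr5:115348982-115349129 and Uqcr11 is chr10:80406831-80407071. The capitals mark the oestrogen-related receptor motif (on the opposite strand) in Atp5g3, the NRF1 motif in Cox6a1 and the ETS motif in Uqcr11. Cox6a1 also holds an ETS motif at position −16 from its start, outside the printed stretch.
Cox8b: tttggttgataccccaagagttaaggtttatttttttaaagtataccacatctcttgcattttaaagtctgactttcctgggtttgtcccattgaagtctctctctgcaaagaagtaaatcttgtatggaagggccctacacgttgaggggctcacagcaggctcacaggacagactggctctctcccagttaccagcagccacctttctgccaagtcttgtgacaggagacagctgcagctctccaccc
Atp5g3: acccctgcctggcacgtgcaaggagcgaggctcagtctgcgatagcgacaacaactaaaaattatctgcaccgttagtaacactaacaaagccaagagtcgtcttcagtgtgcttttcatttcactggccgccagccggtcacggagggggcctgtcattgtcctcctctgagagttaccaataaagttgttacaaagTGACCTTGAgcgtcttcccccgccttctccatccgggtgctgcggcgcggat
Cox6a1: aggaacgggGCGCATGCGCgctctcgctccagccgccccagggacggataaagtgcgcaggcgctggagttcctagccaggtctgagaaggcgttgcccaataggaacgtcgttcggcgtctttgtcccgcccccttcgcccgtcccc
Uqcr11: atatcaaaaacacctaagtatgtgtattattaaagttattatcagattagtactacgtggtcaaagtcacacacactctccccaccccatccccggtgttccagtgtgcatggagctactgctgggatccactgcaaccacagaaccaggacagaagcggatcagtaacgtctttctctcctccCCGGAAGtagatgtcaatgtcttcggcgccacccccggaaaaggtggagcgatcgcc

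Per kilobase of exon, the median level over the 77 tested members was 36.1 CPM per kb in Py2T-LT control, 37.7 with the MEK inhibitor, 33.3 with BMP2 plus the inhibitor, 41.3 in MTΔECad control and 56.7 with rosiglitazone. Atp5b, the catalytic β subunit of ATP synthase, had the highest level per kilobase in both controls and both other Py2T-LT groups, at 322 CPM per kb in Py2T-LT control and 306 in MTΔECad control. Under rosiglitazone Cox8a, the ubiquitous form of the smallest complex IV subunit, had a mean of 404 CPM per kb (455 and 352) and Atp5b one of 392 (405 and 380), so the libraries overlapped. With the longest transcript as length, Atp5b was highest in all 5 groups, at 866 against 455 CPM per kb for Cox8a under rosiglitazone. Atp5a1, the α subunit of the same catalytic head, ranked just below Atp5b in all 5 groups by exon length, but by longest transcript Cox4i1 lay above it in all 5, at 396 against 303 CPM per kb in Py2T-LT control.

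Summed over all 82 members, the level was 7589 and 7046 CPM in Py2T-LT control, 7948 and 7460 with the MEK inhibitor, 6978 and 7156 with BMP2 plus the inhibitor, 7889 and 8168 in MTΔECad control and 10812 and 10445 with rosiglitazone. The rosiglitazone libraries stood above all others, at 1.35 and 1.30 times the mean of their line's control. Each complex shared in this rise: the sums relative to MTΔECad control were 1.35 and 1.32 for complex I, 1.34 and 1.32 for complex II, 1.40 and 1.35 for complex III, 1.43 and 1.33 for complex IV, and 1.30 and 1.26 for complex V. In Py2T-LT cells the sums of the MEK inhibitor group overlapped those of the control for complexes II to V, while for complex I (2214 and 2112 CPM) they lay above both control libraries (2103 and 1971 CPM). Complex V was the only one whose sum with BMP2 plus the inhibitor (2806 and 2923 CPM) lay below both control libraries (3261 and 3016 CPM). Atp5b and Atp5a1 weigh most in this sum, at means of 1360 and 810 CPM in control and 1180 and 767 CPM treated. Both treated libraries lay below both controls for 8 of the 17 complex V members and above them for 0, against 32.9% and 34.3% of all genes. Members made up 0.739% and 0.777% of all counts in MTΔECad control, 1.02% and 1.00% with rosiglitazone, and 0.705% to 0.839% in the Py2T-LT libraries.

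**Figure D1:**
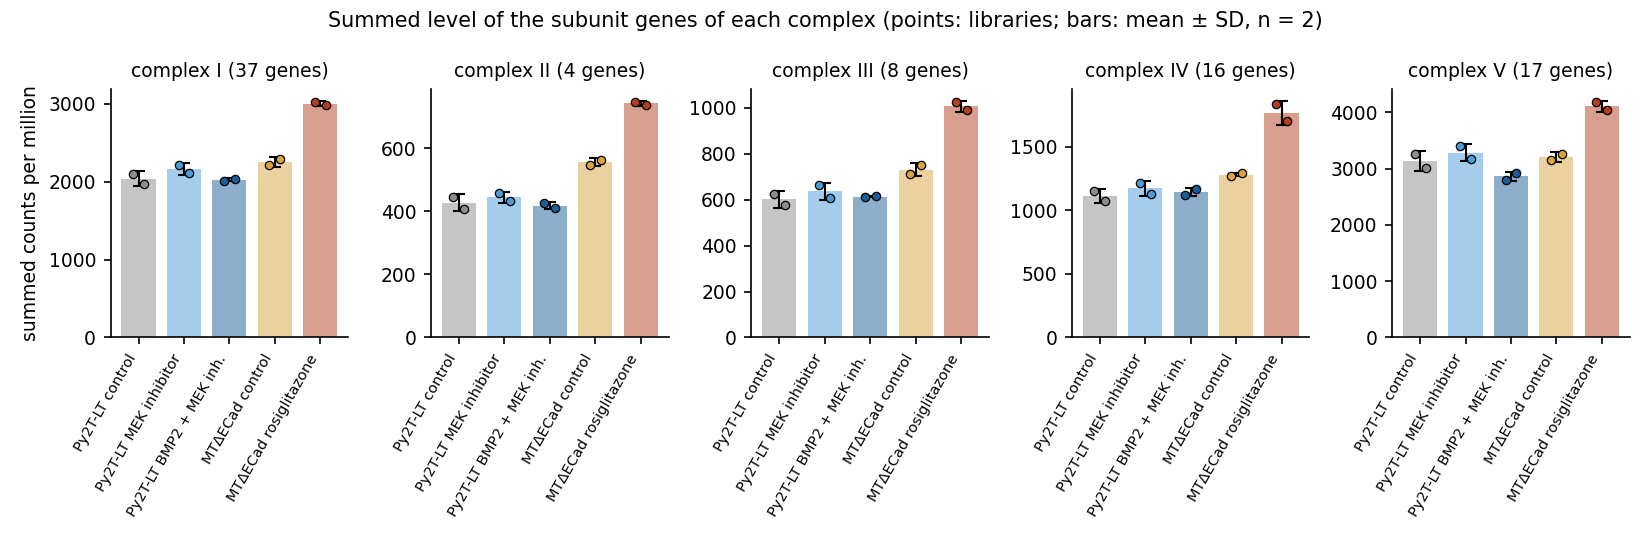
Summed CPM (vertical axes, from 0) of the subunit genes of each complex in the 5 groups; points are libraries and bars the mean ± SD (n = 2). In all 5 panels both rosiglitazone libraries lie above every other library, with complex III at 1024 and 990 CPM against 711 and 752 in MTΔECad control.

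Most respiratory chain subunits were higher in MTΔECad cells with rosiglitazone. Of 77 tested members, 55 (71.4%) rose and 0 fell, against 7.95% of all 13149 genes that rose and 5.26% that fell (edgeR quasi-likelihood test, Benjamini-Hochberg adjusted over all genes, threshold 0.05). At an unadjusted p below 0.05, 66 members were higher and 0 lower, and DESeq2 called 49 higher and 0 lower. The median change was 0.39 on the log2 scale, against −0.02 over all genes tested, and both treated libraries lay above both controls for 72 of the 77 members (93.5%, against 22.9% of all genes). Risen members were 23 of 35 in complex I, 4 of 4 in complex II, 8 of 8 in complex III, 9 of 13 in complex IV and 11 of 17 in complex V. Apart from Cox8b, which passed the filter only through the treated libraries, 54 of 76 members rose, by 0.23 to 0.93. Calls for 33 of the 55 held in each of the 10 alternative analyses, and leaving out 1 library left 39 to 45 members called.

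**Figure D2:**
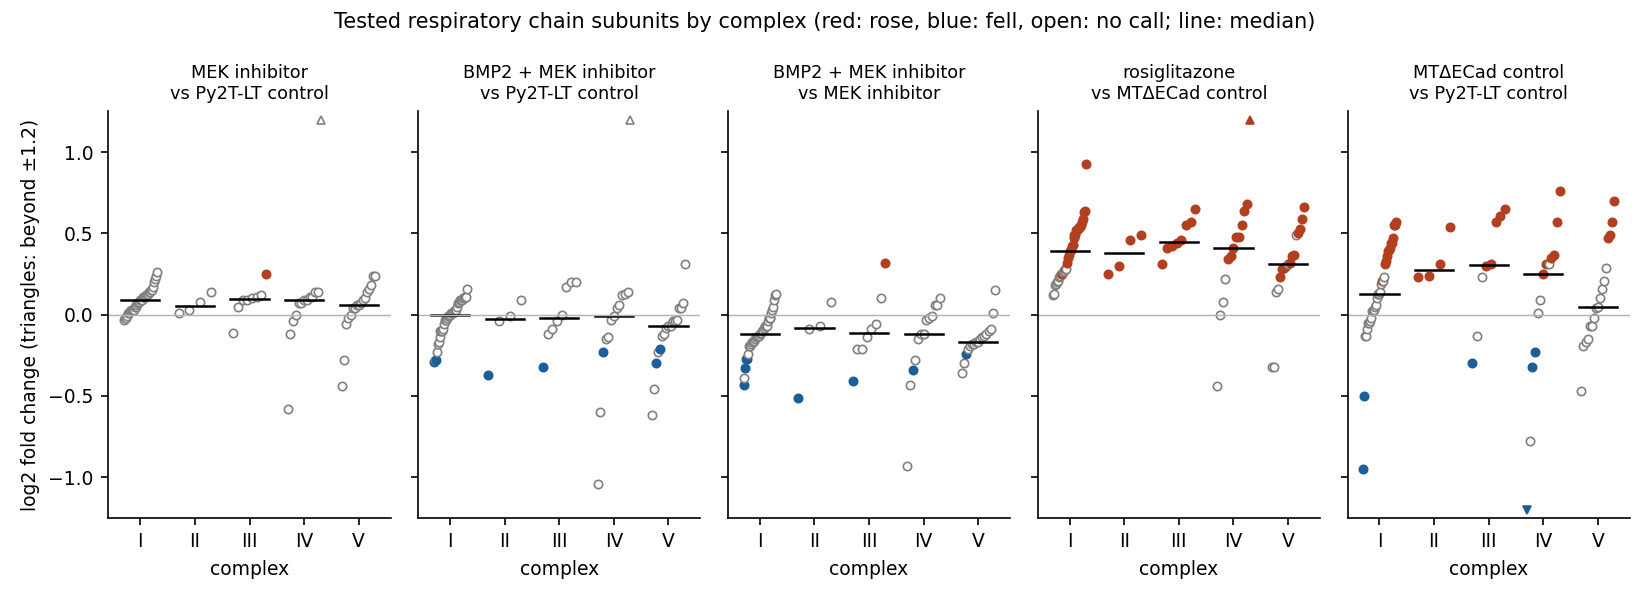
Log2 fold change (vertical axis) of each tested member in 5 comparisons, by complex (horizontal axis); red points rose, blue fell, open had no call, lines are medians and triangles lie beyond ±1.2. Under rosiglitazone the medians of the 5 complexes lie at 0.31 to 0.45, with 74 of 77 points above 0 and Cox7a1, Atp5l and Atp5g2, none of them called, below it, while in the 3 Py2T-LT panels the medians lie between −0.17 and 0.10.

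Within complex I, the core subunits that oxidise NADH all rose. Ndufv1, which carries the NADH-binding flavin site, was at 115 and 121 CPM in control and 193 and 174 CPM with rosiglitazone. The groups did not overlap, and the change was 0.63 ± 0.09 (SE) on the log2 scale (edgeR adjusted p = 2.2e-05). Ndufs1, the iron-sulphur subunit beside it, went from 132 and 156 to 199 and 214 CPM (0.52 ± 0.09, edgeR adjusted p = 0.00016). Ndufv2, the other core subunit of this arm, showed a smaller rise of 0.25 ± 0.07 that had no call in each of the 4 fits that omitted 1 library (edgeR adjusted p = 0.094 to 0.13). Among core subunits that reduce ubiquinone, Ndufs7 (0.55) and Ndufs3 (0.40) rose, and Ndufs8 did not pass, at 65.2 and 68.8 against 74.3 and 72.4 CPM (0.13 ± 0.09). Without rosiglitazone replicate 1, or without control replicate 2, the calls for Ndufs3 and Ndufs7 were lost. That for Ndufs3 was also lost without rosiglitazone replicate 2 and by DESeq2.

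Ndufc2, a membrane-arm accessory subunit at chr7:97400003-97407800, had the largest rise of any member after Cox8b. Its level was 59.4 and 67.6 CPM in control and 118 and 123 CPM with rosiglitazone, so treated libraries stood well above both controls (0.93 ± 0.09, edgeR adjusted p = 1.7e-07). In the 3 Py2T-LT groups it lay between 59.0 and 73.3 CPM. Altogether 17 of 28 tested accessory subunits of complex I rose, with changes from 0.12 to 0.93 over the 28.

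All 4 subunits of complex II were higher. Sdha, the flavoprotein that oxidises succinate, went from 258 and 247 to 365 and 346 CPM (0.49 ± 0.08, edgeR adjusted p = 6.4e-05), and the membrane anchor Sdhd rose by 0.46. The iron-sulphur subunit Sdhb rose by 0.25 and the anchor Sdhc by 0.30. The call for Sdhc was lost when any 1 library of either group was left out. That for Sdhb was lost by DESeq2, and without either rosiglitazone library or without control replicate 1. In complex III, Uqcrfs1, the Rieske iron-sulphur protein, went from 103 and 105 to 152 and 152 CPM (0.55 ± 0.07, edgeR adjusted p = 1.5e-05). The core protein Uqcrc2 rose by 0.46, and its partner Uqcrc1 by 0.42, a call lost without rosiglitazone replicate 1 (edgeR adjusted p = 0.086). Uqcr11, a small subunit whose upstream stretch is printed above, had the largest change of complex III, from 65.5 and 66.4 to 108 and 99.5 CPM (0.65 ± 0.09).

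Complex IV held the largest change. Cox8b (gene ID 12869, chr7:140898942-140900446), the isoform of subunit VIII known from heart, skeletal muscle and brown fat, had 1 and 0 counts in the control libraries and 120 and 99 with rosiglitazone, or 7.87 and 6.81 CPM. The ratio of 219 to 1 counts, scaled for library size, was 223 with a 95% interval of 39.6 to 8850 that covers counting error only. Because Cox8b passed the count filter only through the rosiglitazone libraries, these values are a description with no test. Its ubiquitous counterpart Cox8a remained far more abundant, at 158 and 155 CPM in control and 282 and 218 CPM with rosiglitazone (0.68 ± 0.12, edgeR adjusted p = 0.00087). Per kilobase, the mean level with rosiglitazone was 20.4 CPM per kb for Cox8b and 404 for Cox8a.

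Cox7a1, the corresponding heart and brown fat isoform of subunit VIIa, stayed at a few counts: it had 1 and 6 counts in control and 0 and 5 with rosiglitazone, a ratio of 0.728 (95% counting interval 0.182 to 2.66). Its ubiquitous counterpart Cox7a2 rose by 0.34, a call lost without rosiglitazone replicate 2 or control replicate 1 (edgeR adjusted p = 0.089 to 0.13). Cox7a2l, a relative of this family known for joining complexes III and IV into supercomplexes, was at 72.4 and 77.9 CPM in control and 78.2 and 72.6 CPM with the drug. Its groups overlapped and the estimate was 0.00 ± 0.08. Cox4i1, Cox6a1, Cox6b1 and Cox7b rose by 0.48, 0.55, 0.64 and 0.41, and Cox4i2 (1 and 4 counts against 3 and 7) and Cox6a2 (1 and 2 counts against 0 and 1) stayed near the detection floor of 3 counts. Of the nuclear subunits next to the catalytic core, Cox5b rose by 0.48, a call lost without rosiglitazone replicate 1 or either control library (edgeR adjusted p = 0.060 to 0.43), and Cox5a had a value of 0.22 ± 0.07 with no call.

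Brown fat and muscle markers were read beside Cox8b. Ucp1, the uncoupling protein of brown fat, and Elovl3 had 0 counts in all 4 MTΔECad libraries, which allows up to 3 counts in each, and Cidea went from 0 in both control libraries to 0.918 and 0.550 CPM. The 7 brown adipocyte markers include Cox8b, Cox7a1 and the coactivator gene Ppargc1a. Their summed level was 7.86 and 7.51 CPM in control and 24.1 and 27.2 CPM with rosiglitazone. Ppargc1a made up most of the control sum, and Ppargc1a and Cox8b together most of the treated sum. In Py2T-LT cells the sum of the 7 was higher, at 603 and 647 CPM in control, 87.8 and 97.8 with the MEK inhibitor and 31.7 and 30.5 with BMP2 plus the inhibitor. Few genes carried it: in Py2T-LT control Dio2, another of the 7, made up most of the sum. Cidea and Elovl3 had 0 counts there, Cox8b at most 0.125 CPM and Cox7a1 1.66 and 1.56 CPM. With BMP2 plus the inhibitor, against that control, 1 of 5 tested brown markers rose and 1 fell. The log2 changes ran from −6.04, that of Dio2, to 7.38. The 4 muscle markers with a row, of 10, summed to 1.04 and 1.06 CPM in control and to 0.918 and 0.963 CPM with rosiglitazone. Of these 4, 2 exceeded 3 counts in both control libraries and 1 in both rosiglitazone libraries. The 1 muscle marker that was tested had no call, at 0.34. Other marker sums differed under rosiglitazone as well: 6 epithelial markers summed to 283 and 293 CPM in control and 462 and 418 CPM with the drug (4 of 6 rose), and 5 mesenchymal markers to 16100 and 13500 against 10600 and 10200 CPM (0 called). The part of these and of the adipocyte markers in the rise of the members was not tested.

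**Figure D3:**
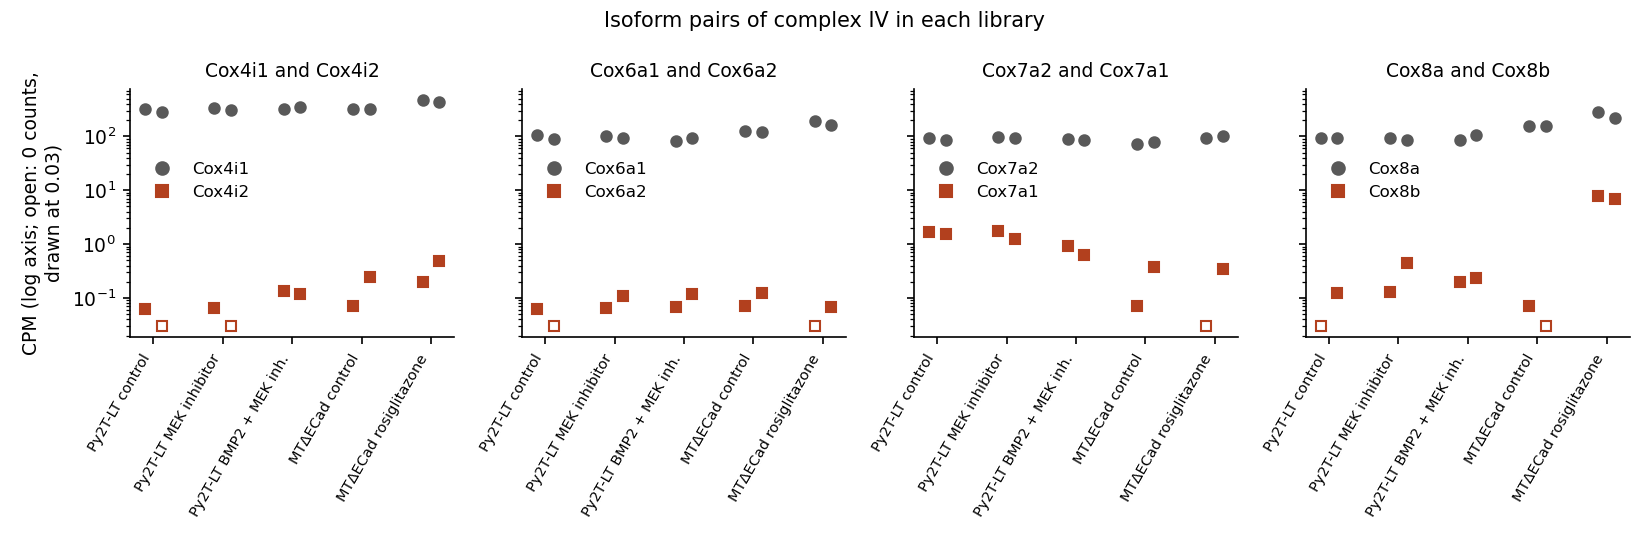
CPM (vertical log axis; open symbols had 0 counts and are drawn at 0.03) of 4 isoform pairs of complex IV in each library, by group on the horizontal axis. Cox8b stands at 7.87 and 6.81 CPM with rosiglitazone and at most at 0.438 CPM in the other groups, while Cox7a1 is highest in Py2T-LT control and MEK inhibitor libraries, at 1.26 to 1.74 CPM.

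ATP synthase subunits rose less evenly. In the catalytic head, Atp5a1 went from 818 and 848 to 1100 and 1050 CPM (0.37 ± 0.07, edgeR adjusted p = 0.0010) and Atp5b from 1280 and 1320 to 1720 and 1610 CPM (0.36 ± 0.07, edgeR adjusted p = 0.0018). Atp5c1, the rotating γ subunit, rose by 0.23, a call that none of the 4 fits omitting 1 library retained (edgeR adjusted p = 0.062 to 0.25). Of the 3 genes for the identical c-ring protein, Atp5g3 rose from 153 and 163 to 219 and 228 CPM (0.50 ± 0.08), whereas the sparsely counted Atp5g1 and Atp5g2 had no call at 0.49 ± 0.20 and −0.32 ± 0.41. Among peripheral stalk and small membrane subunits, Atp5k (0.66) and Atp5o (0.59) led.

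Cycs, encoding cytochrome c, rose from 5.43 and 6.64 to 12.7 and 16.4 CPM (1.26 ± 0.17, edgeR adjusted p = 1.5e-05), and Cyc1, the cytochrome c1 of complex III, by 0.59. Of 21 tested genes for electron carriers and ubiquinone synthesis 9 (42.9%) rose and 0 fell (12 and 1 at an unadjusted p below 0.05), beside 7.95% and 5.26% of all genes, led by Coq8a, a kinase-like protein of ubiquinone synthesis, at 14.7 and 15.6 against 84.3 and 75.1 CPM (2.39 ± 0.11). Of 49 assembly factors 7 (14.3%) rose and 0 fell (14 and 0 unadjusted), with a median of 0.19, and Cox15, needed for haem A, had the largest called value at 0.64. For mitochondrial ribosomal proteins 9 of 76 (11.8%, near the 7.95% of all genes) rose and 0 fell (20 and 0 unadjusted), with a median of 0.17 and Mrpl12 first at 0.58. Of 14 hypoxia targets 4 (28.6%) rose, led by Bnip3 at 0.78, and Pgk1 fell by 0.44.

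Among 15 tested regulators of mitochondrial biogenesis 3 (20.0%) rose and 0 fell (3 and 0 at an unadjusted p below 0.05, edgeR), beside 7.95% and 5.26% of all genes. Ppargc1a, the coactivator PGC-1α, went from 6.96 and 5.76 to 14.1 and 17.8 CPM (1.33 ± 0.15, edgeR adjusted p = 1.5e-06), its relative Ppargc1b from 5.22 and 4.95 to 13.0 and 11.9 CPM (1.29 ± 0.17), and the corepressor Nrip1 by 0.61. Esrra, Nrf1, Gabpa and Tfam, factors known to act on respiratory gene promoters or on mitochondrial DNA, had no call, at 0.10 ± 0.11, −0.19 ± 0.10, 0.02 ± 0.08 and −0.08 ± 0.09. Members with an ETS motif rose in 12 of 17 cases (median 0.30) and those without in 32 of 48 (median 0.41), and for the YY1 motif the numbers were 7 of 10 (median 0.48) and 37 of 55 (median 0.37). Both members with the oestrogen-related receptor motif rose, at 0.50 for Atp5g3 and 0.46 for Sdhd, and so did 42 of 63 without it (median 0.37). For the NRF1 motif the numbers were 3 of 5 (median 0.42) and 41 of 60 (median 0.38). The 13 subunits encoded by mitochondrial DNA were not analysed here, as none had a row.

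In Py2T-LT cells the MEK inhibitor alone changed little in the chain. Of 77 members 1 rose and 0 fell, against 8.98% and 7.52% of all genes (8 and 0 members at an unadjusted p below 0.05, and 1 and 0 by DESeq2). The called gene was Uqcrfs1, at 67.7 and 64.7 CPM in control and 81.3 and 76.6 CPM with the inhibitor (0.25 ± 0.08, edgeR adjusted p = 0.025), and its call was lost without MEK inhibitor replicate 1 or control replicate 2 (edgeR adjusted p up to 0.19). The median was 0.09, against 0.01 over all genes, and both inhibitor libraries lay above both controls for 28 members (36.4%, against 28.9%) and below them for 2 (2.60%, against 24.7%). Coq8a rose with the inhibitor as well, from 8.75 and 7.00 to 18.8 and 17.4 CPM, and Ppargc1b by 0.77, while Coq10b fell by 0.50.

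With BMP2 plus the MEK inhibitor, against Py2T-LT control, 0 members rose and 7 (9.09%) fell, against 19.1% and 19.4% of all genes (3 higher and 9 lower at an unadjusted p below 0.05, and 0 and 6 by DESeq2). The share of members called was below that of all genes in either direction. Sdhb fell most, from 86.3 and 81.7 to 64.3 and 65.9 CPM, with no overlap between groups (fell by 0.37 ± 0.08 on the log2 scale, edgeR adjusted p = 0.00093), and was the only one of the 7 called in all 10 alternatives. Uqcrq fell by 0.32, Atp5d by 0.30, Ndufs8 by 0.29, Ndufa11 by 0.28, Cox5a by 0.23 and Atp5b by 0.21. Without BMP2 plus MEK inhibitor replicate 1, or without control replicate 1, the number of falls dropped from 7 to 1. The median was −0.03, against 0.00 over all genes, and both treated libraries lay above both controls for 14 members (18.2%, against 34.3%) and below them for 21 (27.3%, against 32.9%).

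The Py2T-LT comparisons share libraries, so they are not independent of each other. Set against the MEK inhibitor alone, BMP2 plus the inhibitor gave 1 rise (1.30%) and 8 falls (10.4%), against 17.9% and 19.4% of all genes (1 and 7 by DESeq2). Sdhb was again lowest, at 93.9 and 91.7 CPM with the inhibitor and 64.3 and 65.9 CPM after BMP2 was added (fell by 0.51 ± 0.08, edgeR adjusted p = 2.8e-05). Ndufa12, an accessory subunit near the NADH-oxidising arm, went from 58.0 and 64.1 to 46.6 and 44.3 CPM (fell by 0.43 ± 0.10, edgeR adjusted p = 0.0013), and Cox5a from 86.0 and 80.3 to 63.7 and 67.6 CPM (fell by 0.34 ± 0.08, edgeR adjusted p = 0.0014). These 3 calls held in all 10 alternatives. Uqcrq (−0.41), Ndufb8 (−0.33), Ndufs8 (−0.27), Ndufa11 (−0.27) and Atp5b (−0.24) also fell, but 3 falls in all were left without BMP2 plus MEK inhibitor replicate 1 or without MEK inhibitor replicate 1. Uqcr10, a small complex III subunit, was the 1 rise, from 73.3 and 66.9 to 86.1 and 88.7 CPM (0.32 ± 0.08), a call lost without MEK inhibitor replicate 2 (edgeR adjusted p = 0.064).

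More members leaned down than were called in this comparison: both BMP2 libraries lay below both inhibitor libraries for 41 of 77 (53.2%, against 33.9% of all genes), and the median was −0.13, against 0.01. In complex V this held for 13 of 17. Of the mitochondrial ribosomal proteins 18 of 76 (23.7%, near the 19.4% of all genes) fell and 0 rose (27 and 0 unadjusted, edgeR), with Mrpl42 at −0.69. Cyc1 fell by 0.30, Ppargc1a by 0.35, from 23.6 and 26.4 to 19.5 and 19.8 CPM, and the complex III assembly factor Uqcc2 by 0.90. The adipocyte marker sum was meanwhile higher with BMP2 plus the inhibitor than with the inhibitor alone, and its relation to the members was not tested.

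The effect of rosiglitazone in MTΔECad cells and that of BMP2 plus the MEK inhibitor in Py2T-LT cells were compared with an interaction term. The rosiglitazone effect was larger for 47 of 77 members (61.0%) and smaller for 0, against 13.3% and 11.6% of all genes (60 and 0 members at an unadjusted p below 0.05, and 41 and 0 by DESeq2). The median difference was 0.44, against 0.01 over all genes, and the estimate was positive for 74 of 77 members. Line and treatment differ together here, so their parts cannot be told apart. The difference was 0.94 ± 0.13 for Ndufc2 (edgeR adjusted p = 1.1e-05) and 0.74 ± 0.13 for Ndufv1 (edgeR adjusted p = 0.00015). For Sdhb it was 0.62 ± 0.11 (edgeR adjusted p = 0.00027), with a fall in Py2T-LT cells and a rise in MTΔECad cells. The call for that rise was lost by DESeq2, and without either rosiglitazone library or without MTΔECad control replicate 1. For Atp5g1, with 59 to 112 counts per library, the difference was 0.95 ± 0.30. Its call was lost by DESeq2, and without BMP2 plus MEK inhibitor replicate 2, Py2T-LT control replicate 1 or MTΔECad control replicate 1. Cox8b passed the filter only through the rosiglitazone libraries and is given as counts: it had 0 and 2 in Py2T-LT control, and 3 and 4 with BMP2 plus the inhibitor, a ratio of 3.51 (95% counting interval 0.669 to 34.6). Without it the difference was called for 46 of 76 members. Calls for 27 of the 47 held in all 14 alternatives.

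**Figure D4:**
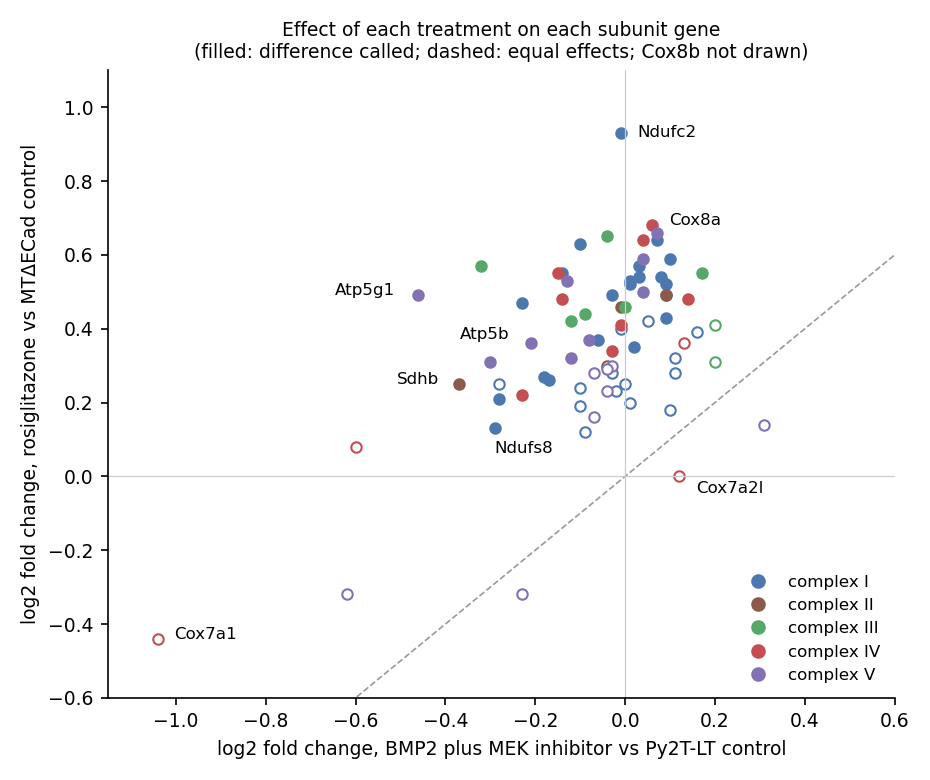
Log2 fold change with rosiglitazone in MTΔECad cells (vertical axis) against that with BMP2 plus the MEK inhibitor in Py2T-LT cells (horizontal axis) for 76 members, Cox8b left out; colours are complexes, filled points had a called difference and the dashed line marks equal effects. Most points lie near 0 on the horizontal axis and between 0.2 and 0.7 on the vertical axis, with Ndufc2 at 0.93 and Sdhb at −0.37 and 0.25.

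The lines also differed before treatment. Both control groups also serve in the treatment comparisons and the interaction, so the line differences are not independent of those results. In MTΔECad control against Py2T-LT control 32 members (41.6%) were higher and 6 (7.79%) lower, against 29.3% and 31.7% of all genes. The 6 include Cox7a1, which passed the count filter only through the Py2T-LT libraries. The split of higher and lower members depended on the scaling: with library totals alone, which moved the median of all genes from −0.03 to −0.16, 18 members were higher and 13 lower, and the members' median moved from 0.19 to 0.06. Relative to the median of all genes, the members' median was thus about as far above it under both scalings. Cox8a was highest among the called rises, at 92.3 and 92.5 CPM in Py2T-LT and 158 and 155 CPM in MTΔECad (0.76 ± 0.12, edgeR adjusted p = 5.7e-05). Uqcrfs1 rose by 0.65 and Sdha by 0.54, from 182 and 166 to 258 and 247 CPM. Atp5md, at 23 to 44 counts in these 4 libraries, had 0.70 ± 0.29, a call lost without Py2T-LT control replicate 2, either MTΔECad control library, with library totals or by DESeq2 (edgeR adjusted p for the rest up to 0.23).

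In complex I 13 of 35 members were higher in MTΔECad control and 2 lower, with a median of 0.13. Ndufa12 was lower in MTΔECad, at 24.2 and 28.6 against 53.3 and 49.0 CPM (fell by 0.95 ± 0.10, edgeR adjusted p = 6.7e-08), and so was Ndufs7, at 33.6 and 27.4 against 47.1 and 39.2 CPM (fell by 0.50 ± 0.12, edgeR adjusted p = 0.0015). Ndufv1 (0.55), Ndufs8 (0.44) and Ndufs3 (0.39) were higher. The call for Ndufs3 was lost with library totals only, and without Py2T-LT control replicate 2 or MTΔECad control replicate 1. All 4 subunits of complex II were higher, Sdhb at 0.24 and Sdhc at 0.23, both lost without Py2T-LT control replicate 2 or MTΔECad control replicate 2, and Sdhd at 0.31. With library totals only, the calls for Sdhb, Sdhc and Sdhd were lost (edgeR adjusted p = 0.051 for Sdhd), and that for Sdha held. The call for Sdhc was also lost by DESeq2. Of the 5 subunits of the ATP synthase head 0 passed, with values from −0.17 to 0.16 (edgeR), while Atp5g3 was higher by 0.57.

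In complex IV the subunit VIIa family was lower in MTΔECad. Cox7a1 held 27 and 25 counts in Py2T-LT control and 1 and 6 in MTΔECad control, a ratio of 0.143 (95% counting interval 0.0548 to 0.316). It passed the count filter only through the Py2T-LT libraries, so its fitted change of −2.77 ± 0.61 is a description with no test. Cox7a2l stood at 98.7 and 89.5 against 72.4 and 77.9 CPM (−0.32 ± 0.08, edgeR adjusted p = 0.0018), and Cox7a2 at 93.1 and 85.2 against 72.0 and 79.5 CPM (−0.23 ± 0.08), the last lost without the first replicate of either group (edgeR adjusted p = 0.16 and 0.20). Cox5a, Cox5b, Cox6a1, Cox6b1 and Cox8a were higher, by 0.57, 0.37, 0.35, 0.31 and 0.76. With library totals only, the calls for Cox5b, Cox6a1 and Cox6b1 were lost. Those for Cox5b and Cox6a1 were also lost without MTΔECad control replicate 1 and without 1 of the Py2T-LT control libraries. DESeq2 did not call Cox5b. Outside the members Ppargc1a fell by 1.68 ± 0.15 from Py2T-LT to MTΔECad control, Ppargc1b was higher by 1.65 ± 0.23, Tfam fell by 0.68 ± 0.09 and Cycs fell by 0.72 ± 0.18.

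**Figure D5:**
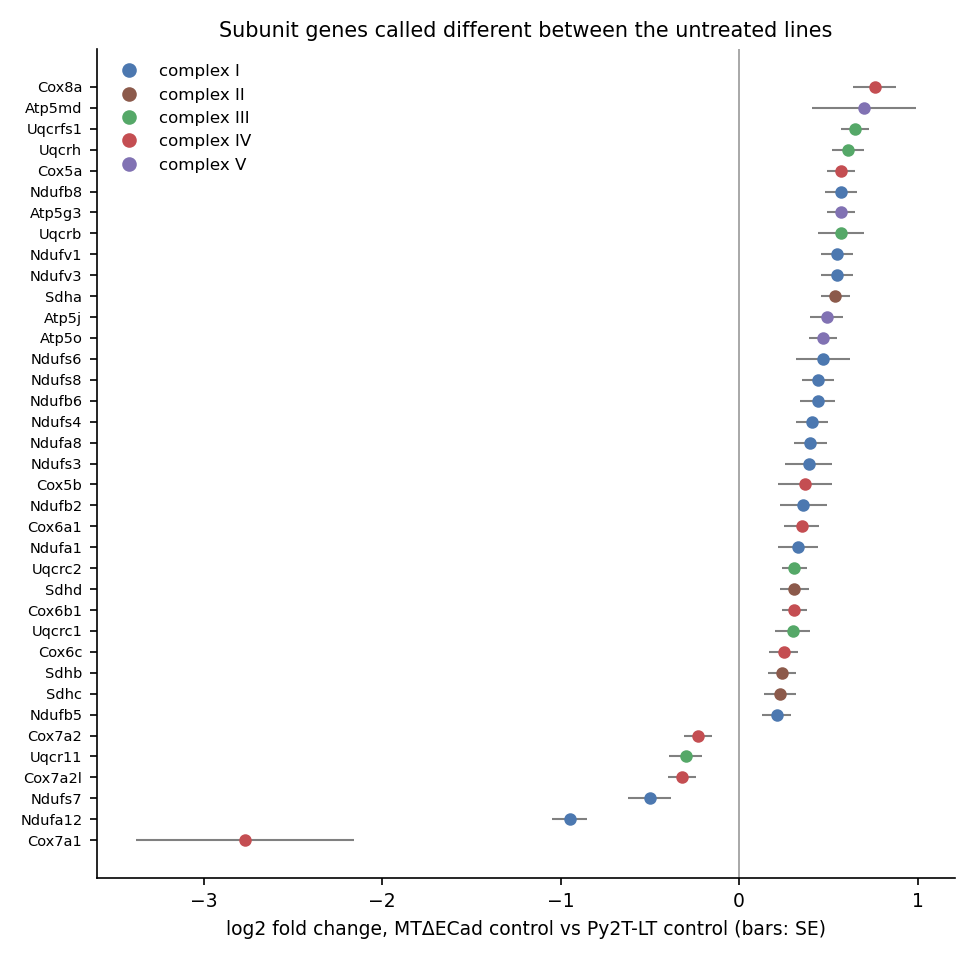
Log2 fold change with its SE (horizontal axis) of 37 members called different between MTΔECad control and Py2T-LT control (vertical axis, coloured by complex). From Cox7a1 at −2.77 to Cox8a at 0.76, 6 lie below 0 and 31 above. Cox7a1 passed the count filter only through the Py2T-LT libraries. With library totals alone 13 were called below and 18 above.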

How the data were processed

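RNA of 10 libraries was sequenced after poly-A selection or a stranded total RNA kit (the labels' protocols name both). The deposited table holds counts per gene, unnormalized, made by the authors with STAR on mm10, per the submitters' processing notes; the counting tool and its strand setting are each not given in the sources used here, so overlapping and antisense genes cannot be told apart. Gene IDs were matched to RefSeq GRCm38.p6 symbols (18057 rows) and GENCODE M21 (3 rows); the 43 unmatched rows hold 0.763% of counts.

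Counts were fitted in edgeR 4.0.16 (R 4.3.3; TMM scaling, filterByExpr, 13149 genes, robust quasi-likelihood test, 5 group means, 5 residual degrees of freedom, Benjamini-Hochberg threshold 0.05). The script was tested on simulated data. SE is the log2 change over the square root of F. CPM values use TMM sizes, and 1 count equals at most 0.0696 CPM. The detection floor was 3 counts per library; intervals cover counting error only.

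Named were the 3 largest called changes per comparison in each direction, isoform pairs, core subunits and untested members; other members were named after their values were seen. The members and lists were chosen with earlier results of these data known. Alternatives were size factors, library totals, no filter, a replicate block, DESeq2 1.42.0, only the compared groups, each library left out and longest transcript lengths. Ndufs5-ps and genes without a row were left out of the members. The named values of 1 member, which is counted in the totals, are not reported here.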

Additional observations from a re-analysis of the deposited data

Results flagged for a closer look

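The effect of rosiglitazone in MTΔECad cells and that of BMP2 plus the MEK inhibitor in Py2T-LT cells differed by the interaction test (edgeR, adjusted over all genes) for 47 members, all with the larger value for rosiglitazone. One of them, Cox8b, passed the count filter only through the rosiglitazone libraries, so its difference is not given, and 46 of 76 were left without it. Among the named members the difference on the log2 scale was 0.95 for Atp5g1 and 0.94 for Ndufc2. In complex I it was 0.74 for Ndufv1, 0.69 for Ndufs7, 0.43 for Ndufs1, 0.42 for Ndufs8 and 0.34 for Ndufa4. In complex II it was 0.62 for Sdhb, 0.47 for Sdhd and 0.40 for Sdha, and in complex III 0.54 for Uqcrc1, 0.46 for Uqcrc2 and 0.38 for Uqcrfs1. In complex IV it was 0.70 for Cox6a1, 0.63 for Cox5b, 0.61 for Cox8a, 0.59 for Cox6b1, 0.44 for Cox5a, 0.42 for Cox7b, 0.37 for Cox7a2 and 0.34 for Cox4i1. In complex V it was 0.57 for Atp5b, 0.45 for Atp5g3 and 0.45 for Atp5a1. The calls for Cox4i1, Cox5b, Cox7a2, Cox8a, Ndufa4, Ndufs1, Ndufs8 and Uqcrfs1, beside that for Atp5g1, were lost in 1 or more analyses without a library.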

How the results depend on the processing

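Of 2073 alternative values for 195 named member results, 1929 kept their side of the threshold, 118 lost the call, 26 gained one and 0 reversed a call. The sign of the estimate changed for 68 values that had no call. The cause was not tested. For the MEK inhibitor against control, members risen were 1 at first, 3 with library totals only, 2 without a count filter, 2 with a replicate block, 0 with only the compared groups and 0 to 2 without 1 library, and all genes fallen ranged from 593 to 1158 without 1 library. For BMP2 plus the inhibitor against control, members risen were 1 with size factors, 1 with the replicate block and 0 to 1 without 1 library, and members fallen 1 to 8. Against the MEK inhibitor alone, members fallen were 16 and their median −0.18 with library totals only, and without 1 library 3 to 12 fell and 0 to 1 rose. For rosiglitazone, all genes fallen ranged from 353 to 463 without 1 library. Between the untreated lines, library totals only gave 18 members risen, 13 fallen and a median of 0.06, and the median without 1 library was 0.11 to 0.23. With longest transcript lengths, the median levels over the 82 members were 47.8, 49.7, 46.6, 58.2 and 73.0 CPM per kb in the order of the groups, against 34.3, 36.2, 32.2, 39.9 and 52.2. Same-numbered libraries correlated between groups at −0.106 to 0.1, so the numbers were not taken as pairs, and the replicate block moved no other count of members by over 1.5 times. A filter at a mean of 100 counts, chosen after seeing the data, left 54 members risen with rosiglitazone. In analyses without 1 library the lone library is assumed to vary like the other groups. With 2 libraries a group, small changes and members of few counts were the least precise.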
